A study of Mus musculus with 48 samples.

Results

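The genes described here are 35 genes of protein folding in the endoplasmic reticulum (ER) and of the response to amino acid shortage, named as a list, out of 22180 genes with a probe set of their own on the arrays. A gene was taken when a probe set carried its symbol and no other, and the probe set with the highest mean over all arrays was used. By this rule 33 of the 35 were measured, and all 33 passed the filter on dim genes, a mean of at least 4.94 on the log2 scale in 1 or more groups. Pdia4, a disulfide isomerase gene, and Aars, the alanine transfer RNA synthetase gene, lay on probe sets that carry several symbols and have no values here. The members were 16 chaperones and folding enzymes (15 measured), 4 genes of ER associated degradation, 5 stress sensors and transcription factors, and 10 targets of the transcription factor ATF4 (9 measured).

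RNA of mouse aorta was compared between knockout (KO) and wild-type (WT) animals in 3 models, in which Eln (elastin), Efemp2 (fibulin-4) or Lox (lysyl oxidase) was deleted. Ascending aorta (AA) and descending aorta (DA) were taken before birth, at embryonic day 17.5 (E17.5), and after it, at postnatal day 1 (P1). Each model had 4 pairs of KO and WT, AA and DA at E17.5 and at P1, and each of these 24 groups had 2 arrays, each with RNA of 8 pooled aortas. Eln KO and its WT, and Efemp2 KO and its WT, were of the C57BL/6 strain, and Lox KO and its WT were labelled B6 albino. No group received an agent, and the labels do not give the construction of the alleles or say whether KO and WT were littermates. In bulk tissue of this kind, fewer cells of a type and less RNA per cell cannot be told apart.

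Proteins that enter the ER are folded there by chaperones such as BiP and calreticulin and by disulfide isomerases, and those that fail to fold are returned to the cytosol and degraded. When unfolded proteins build up, the sensors IRE1, PERK and ATF6 raise the transcription of chaperone and degradation genes, largely through XBP1 and cleaved ATF6, while PERK, like the sensor of amino acid shortage, acts through ATF4 on genes of amino acid synthesis and transport. Smooth muscle cells of the developing aorta secrete large amounts of elastin, collagen and other matrix proteins, all of which pass through the ER.

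Promoter sequences show both arms of this response in letters. RefSeq promoters of GRCm38.p6, from 250 bases before to 50 bases after the start of transcription, were present for 32 of the 35 members, and Atf6, Manf and Hyou1 were without one. In these, 4 patterns were searched on both strands. The ER stress response element, ERSE (CCAAT, any 9 bases, CCACG), was found in 9 of the 33 member promoters and in 39 of all 32851 promoters (0.119%). Its variant ERSE-II (ATTGG, any 1 base, CCACG) was found in the promoters of Dnajb11 and Herpud1, and in 0.0365% of all promoters. The XBP1 pattern UPRE (TGACGTGG) was in 0 member promoters and in 0.676% of all. These 3 patterns share the letters CCACG, read as CGTGG on the other strand. The ATF4 pattern CARE (TGATGNAA) was in 5 members, Aars, Asns, Chac1, Herpud1 and Trib3, and in 3.97% of all promoters. A match describes letters and not a site in use.

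The sequences below are those of the 7 members with a match that rose in at least 1 model, written on the strand of the match with 10 bases on each side and the matching letters, with any bases between them, in capitals. The first 5 hold ERSE, Dnajb11 holds ERSE-II and Asns holds CARE.
Hspa5 (chr2:34772015-34772053): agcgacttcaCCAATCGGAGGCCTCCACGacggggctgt
Calr (chr8:84847065-84847103): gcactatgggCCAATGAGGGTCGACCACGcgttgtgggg
Canx (chr11:50325790-50325828): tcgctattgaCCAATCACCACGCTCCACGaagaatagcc
Pdia6 (chr12:17266481-17266519): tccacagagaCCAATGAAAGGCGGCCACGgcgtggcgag
Syvn1 (chr19:6046522-6046560): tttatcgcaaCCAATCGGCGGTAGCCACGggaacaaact
Dnajb11 (chr16:22857842-22857872): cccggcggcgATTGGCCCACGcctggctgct
Asns (chr6:7693215-7693242): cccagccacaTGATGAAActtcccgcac
The ERSE letters of Hspa5 lie 65 to 47 bases before the start of the gene, those of Pdia6 98 to 80, those of Calr 162 to 144, those of Canx 145 to 127 and those of Syvn1 44 to 26. The CARE letters of Asns lie 23 to 16 bases before its start, and the ERSE-II letters of Dnajb11 lie 8 to 18 bases after it.

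All values are log2 array signals, and a difference is KO less WT on that scale with its standard error (SE). The mean difference of a model averages its 4 pairs, with 8 arrays per genotype. Array medians ran from 3.71 to 5.35, and the correlation of replicate arrays across genes had a median of 0.97 and was at least 0.875. Shared lowest values place the arrays of different stages in separate normalization sets, so levels are compared only within a model and stage, and a lowest, median and highest value over the 8 arrays of a genotype, which pool both stages, only describe the spread. Smooth muscle markers averaged 8.30 to 10.34 on every array. Eln ran from 4.23 to 5.56 in Eln KO and from 9.20 to 11.91 in its WT, and it fell by 6.12 ± 0.22 (adjusted p = 2.48e-19). Lox ran from 6.26 to 8.71 in Lox KO and from 9.55 to 11.48 in its WT, and it fell by 2.66 ± 0.16 (adjusted p = 1.47e-12), while the deletion of Efemp2 could not be checked on a probe set of its own. In 4 WT arrays of P1, both of Eln DA and replicate 2 of Efemp2 AA and of Efemp2 DA, probe sets without a gene name had medians of 4.35 to 4.37, the highest of the Eln and Efemp2 arrays, and these 4 are called the high-background arrays. The median difference of all 15337 tested genes, here called the shift, was 0.06, 0.04 and -0.09 in KO of Eln, Efemp2 and Lox. It was 0.27 in Eln DA P1, -0.20 in Lox AA P1 and -0.17 in Lox DA P1, and within 0.1 of 0 in the other 9 pairs. With 2 arrays per group the p values measure the spread between these pools.

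Some folding genes rose in the aorta of Eln KO and Efemp2 KO, 4 and 6 of the 15 measured chaperones and folding enzymes. In Eln KO 4 members rose and 0 fell, and all 4 were chaperones or folding enzymes, Calr, Pdia6, P4hb and Hyou1. In Efemp2 KO 10 members rose and 0 fell, of which 6 were chaperones or folding enzymes, 2 were genes of ER associated degradation and 2 were ATF4 targets. In Lox KO 0 members passed in either direction by limma, with 6 of 33 at an unadjusted p under 0.05, where 14.6% of all tested genes had such a p. Calr and Pdia6 rose in 2 models. Of all tested genes, 2.74% rose and 0.541% fell in Eln KO, 3.14% rose and 0.665% fell in Efemp2 KO, and 0.561% rose and 1% fell in Lox KO.

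The differences of the members were small, with a largest mean difference of 0.54. The median member difference less the shift was 0.17, 0.22 and 0.14 in KO of Eln, Efemp2 and Lox, where the median of all tested genes is 0 by construction. Of the 33 measured members, 22 (66.7%) lay above the shift in all 3 models, against 3245 of 15337 tested genes (21.2%). The list was chosen with earlier results of these data known, so these shares describe it and are no test of enrichment. At an unadjusted p under 0.05 there were 16 members in Eln KO and 17 in Efemp2 KO, where 15.7% and 16.2% of all tested genes had such a p.

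**Figure D1:**
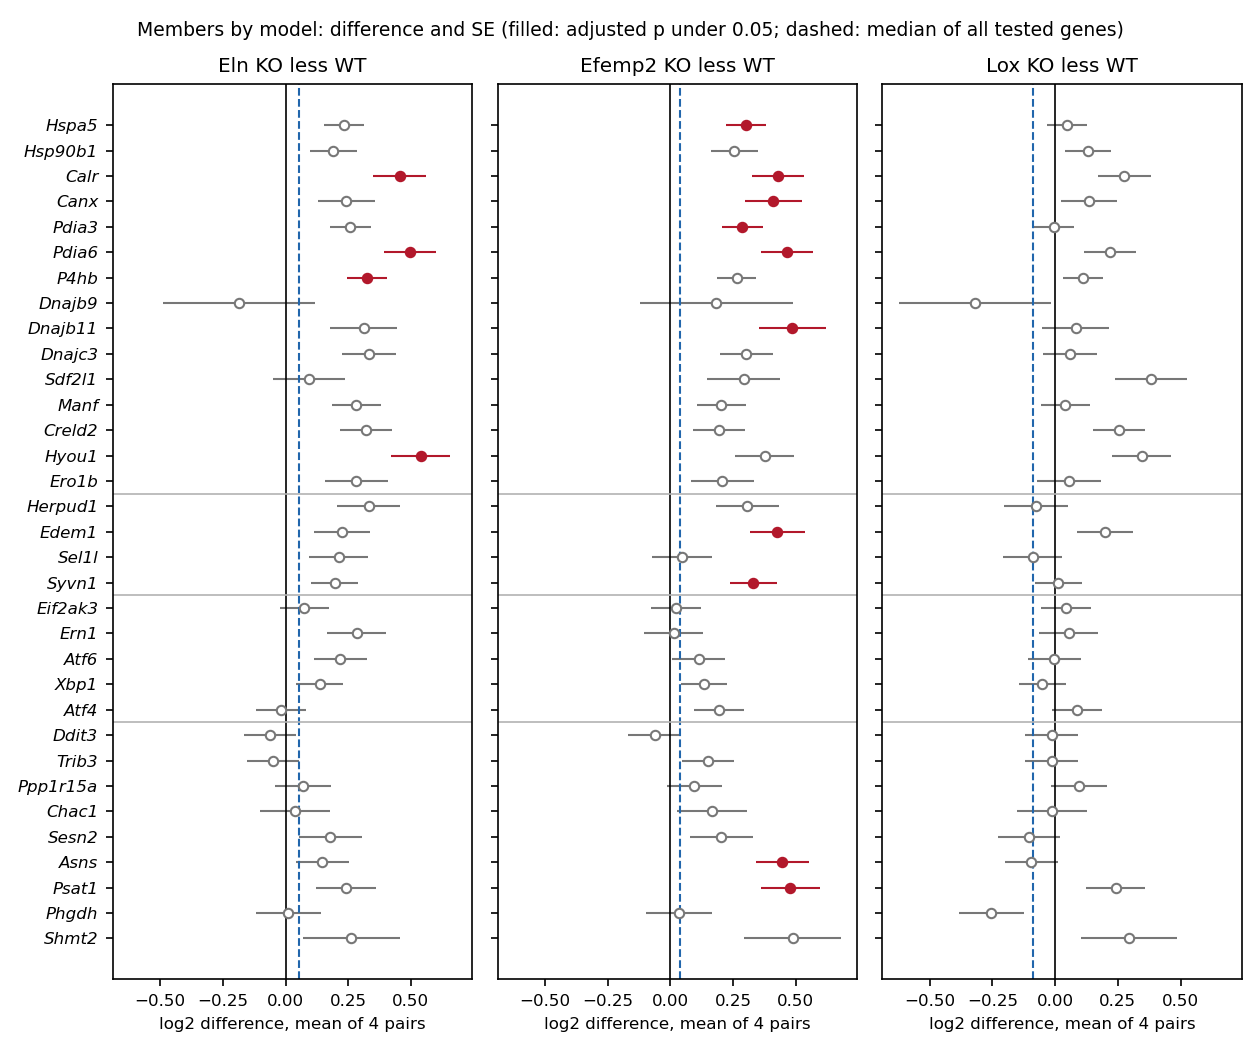
Mean difference (KO less WT, log2, horizontal axis) of each measured member in Eln, Efemp2 and Lox KO, with bars of 1 SE; filled points passed an adjusted p of 0.05, grey lines separate the 4 groups, and the dashed line is the median of all tested genes. Filled points lie mostly among the chaperones at the top, 4 in Eln KO and 10 in Efemp2 KO in all, and there are 0 in Lox KO.

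The counts changed with the arrays used and with the processing. Leaving out the 4 high-background arrays leaves 1 WT array in each of Efemp2 AA P1 and Efemp2 DA P1. Values of Efemp2 KO then rest partly on these single arrays. It also leaves no WT array of Eln DA P1, so that values of Eln KO rest on 3 pairs in place of 4. These limits hold for all values without the 4 arrays, here and below. Without them 0 members rose in Eln KO and 6 in Efemp2 KO. Of all tested genes 145 and 397 rose there, against 421 and 482 with all arrays. The background of each array was measured as the median signal over 1390 receptor genes of smell (olfactory and vomeronasal). With it as a covariate 1 member rose in Eln KO, Ero1b, which was not called before, and 1 in Efemp2 KO, Asns. Of all tested genes 135 and 241 rose with the covariate. At P1 this background ran from 2.83 to 3.53 in Eln WT and from 2.52 to 2.86 in Eln KO, and from 2.76 to 3.23 in Efemp2 WT and from 2.69 to 3.01 in Efemp2 KO. A fit of each model's 16 arrays alone gave 1, 0 and 2 in KO of Eln, Efemp2 and Lox, and those in Lox KO were Hyou1 and Sdf2l1. Of all tested genes 284, 177 and 186 rose in these fits. Leaving out 1 array gave 4 to 6 members in Eln KO and 4 to 13 in Efemp2 KO, and 272 to 697 and 317 to 722 of all tested genes. The Efemp2 count was 4 without WT DA P1 replicate 2, KO AA E17.5 replicate 1 or KO AA P1 replicate 2, 5 without WT DA E17.5 replicate 1 or KO DA P1 replicate 1, and 6 without WT DA E17.5 replicate 2, KO DA E17.5 replicate 2 or KO AA P1 replicate 1. After cyclic loess 3 and 5 members rose, while of all tested genes 240 rose and 134 fell in Eln KO, 362 and 216 in Efemp2 KO, and 137 and 70 in Lox KO, against 421 and 83, 482 and 102, and 86 and 154 in the deposited values.

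Calr encodes calreticulin, a lectin chaperone that holds glycoproteins in the ER until they are folded. In the Eln model its signal had a lowest value of 8.65, a median of 9.61 and a highest value of 10.09 in WT and 9.31, 10.14 and 10.40 in KO. At P1 the AA arrays read 9.28 and 9.27 in WT and 9.67 and 10.03 in KO, and in all 4 pairs both KO arrays lay above both WT arrays. In the Efemp2 model the lowest, median and highest values were 8.66, 9.73 and 10.56 in WT and 9.52, 10.19 and 10.67 in KO. There the KO arrays were above both WT arrays in 3 pairs and below them in DA at E17.5, where WT read 10.54 and 10.56 and KO 10.48 and 10.42. Calr rose by 0.46 ± 0.10 in Eln KO (adjusted p = 0.00835) and by 0.43 ± 0.10 in Efemp2 KO (adjusted p = 0.014). In Lox KO the difference was 0.28 ± 0.10 (adjusted p = 0.194), and its change from E17.5 to P1 did not pass (0.50, adjusted p = 0.35). At E17.5 the Lox DA arrays overlapped, with 9.33 and 9.38 in WT and 9.33 and 9.40 in KO, while at P1 they did not, with 10.39 and 10.42 in WT and 11.12 and 10.75 in KO. The Efemp2 call was lost without WT AA E17.5 replicate 1, and with the background covariate the differences were 0.30 and 0.29, neither of which passed. The Eln call was also lost without the 4 high-background arrays, and both calls were lost with the model's arrays alone.

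Pdia6, a disulfide isomerase that also acts on the sensor IRE1, had the smallest adjusted p of any member in both models. Its lowest, median and highest values in the Eln model were 7.05, 8.11 and 8.51 in WT and 8.07, 8.48 and 8.66 in KO. The widest gap was in DA at P1, where WT read 7.05 and 7.35 and KO 8.07 and 8.60, and both WT arrays of that pair had high background. In AA at E17.5 the Eln arrays overlapped, with 8.19 and 8.51 in WT and 8.41 and 8.37 in KO. In the Efemp2 model the values were 7.41, 8.53 and 9.36 in WT and 8.23, 8.96 and 9.59 in KO, with KO above WT without overlap in all 4 pairs. Pdia6 rose by 0.50 ± 0.10 in Eln KO (adjusted p = 0.00314) and by 0.46 ± 0.10 in Efemp2 KO (adjusted p = 0.0055), and differed by 0.22 ± 0.10 in Lox KO (adjusted p = 0.316). Leaving out any 1 array ended neither call, but with the background covariate neither passed (0.31, adjusted p = 0.17, and 0.30, adjusted p = 0.124), and the Efemp2 call was lost with the model's arrays alone (adjusted p = 0.115). Without the 4 high-background arrays the Eln difference was 0.28 (adjusted p = 0.228) and the Efemp2 difference 0.45 (adjusted p = 0.00671).

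Hyou1 encodes a large chaperone of the HSP70 family that exchanges nucleotide on BiP. In the Eln model it ran from 5.26 through a median of 6.57 to 6.74 in WT and from 6.52 through 6.75 to 7.10 in KO. The lowest WT values were those of DA at P1, 5.26 and 5.86, against 6.60 and 6.57 in KO, and 1 WT array of AA at P1 read 5.56 beside a replicate of 6.61. Hyou1 rose by 0.54 ± 0.12 in Eln KO (adjusted p = 0.00517), the largest mean difference of any member, and differed by 0.38 (adjusted p = 0.171) without the 4 high-background arrays. Hyou1 was also not called in Eln KO with the background covariate or with the model's arrays alone. In Efemp2 KO it differed by 0.38 ± 0.12 (adjusted p = 0.0675) with KO above WT in all 4 pairs, since at AA E17.5 WT read 6.98 and 7.36 and KO 7.59 and 7.59, and at DA P1 WT read 6.45 and 5.98 and KO 6.64 and 6.59. In Lox KO it differed by 0.35 ± 0.12 (adjusted p = 0.144). The Lox arrays overlapped at E17.5 and were apart at P1, with 6.48 and 6.48 in WT AA and 7.06 and 7.13 in KO AA.

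P4hb encodes protein disulfide isomerase, which is also the beta subunit of the collagen prolyl hydroxylase. In the Eln model it ran from 9.59 through a median of 9.77 to 9.95 in WT and from 9.85 through 10.06 to 10.35 in KO, and KO lay above WT in all 4 pairs. In AA at P1 the WT arrays read 9.92 and 9.95 and the KO arrays 10.29 and 10.32. It rose by 0.32 ± 0.08 in Eln KO (adjusted p = 0.0159), and differed by 0.26 ± 0.08 in Efemp2 KO (adjusted p = 0.057) and by 0.11 ± 0.08 in Lox KO (adjusted p = 0.545). The Eln call was lost after cyclic loess (adjusted p = 0.101), after subtracting array medians (adjusted p = 0.0514) and without the 4 high-background arrays (adjusted p = 0.194). It was also lost with the background covariate and with the model's arrays alone. Members with KO above WT without overlap in all 4 pairs were Calr, P4hb and Dnajc3 in Eln KO, Hspa5, Pdia6 and Hyou1 in Efemp2 KO, and 0 in Lox KO. This pattern held for 1.28%, 0.854% and 0.587% of all tested genes in the 3 models.

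Hspa5 encodes BiP, the ER chaperone of the HSP70 family that binds unfolded chains and keeps the stress sensors inactive. In the Efemp2 model its lowest, median and highest values were 7.08, 7.92 and 8.52 in WT and 7.60, 8.10 and 8.77 in KO. In DA at P1 the WT arrays read 7.31 and 7.20 and the KO arrays 7.61 and 7.62, and no pair overlapped. Hspa5 rose by 0.30 ± 0.08 in Efemp2 KO (adjusted p = 0.0255), and differed by 0.23 ± 0.08 in Eln KO (adjusted p = 0.111) and by 0.05 ± 0.08 in Lox KO (adjusted p = 0.821). In the Lox model KO was below WT in AA at E17.5, with 7.18 and 7.32 in WT and 7.04 and 7.03 in KO, and above it in AA at P1, with 8.61 and 8.55 in WT and 8.85 and 8.80 in KO. The Efemp2 call was lost in 11 of 26 alternatives, among them cyclic loess, where the difference was 0.17 (adjusted p = 0.301). It was lost without WT DA E17.5 replicate 2, WT AA P1 replicate 2, WT DA P1 replicate 2, KO AA E17.5 replicate 1, KO DA E17.5 replicate 2 or KO AA P1 replicate 2.

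**Figure D2:**
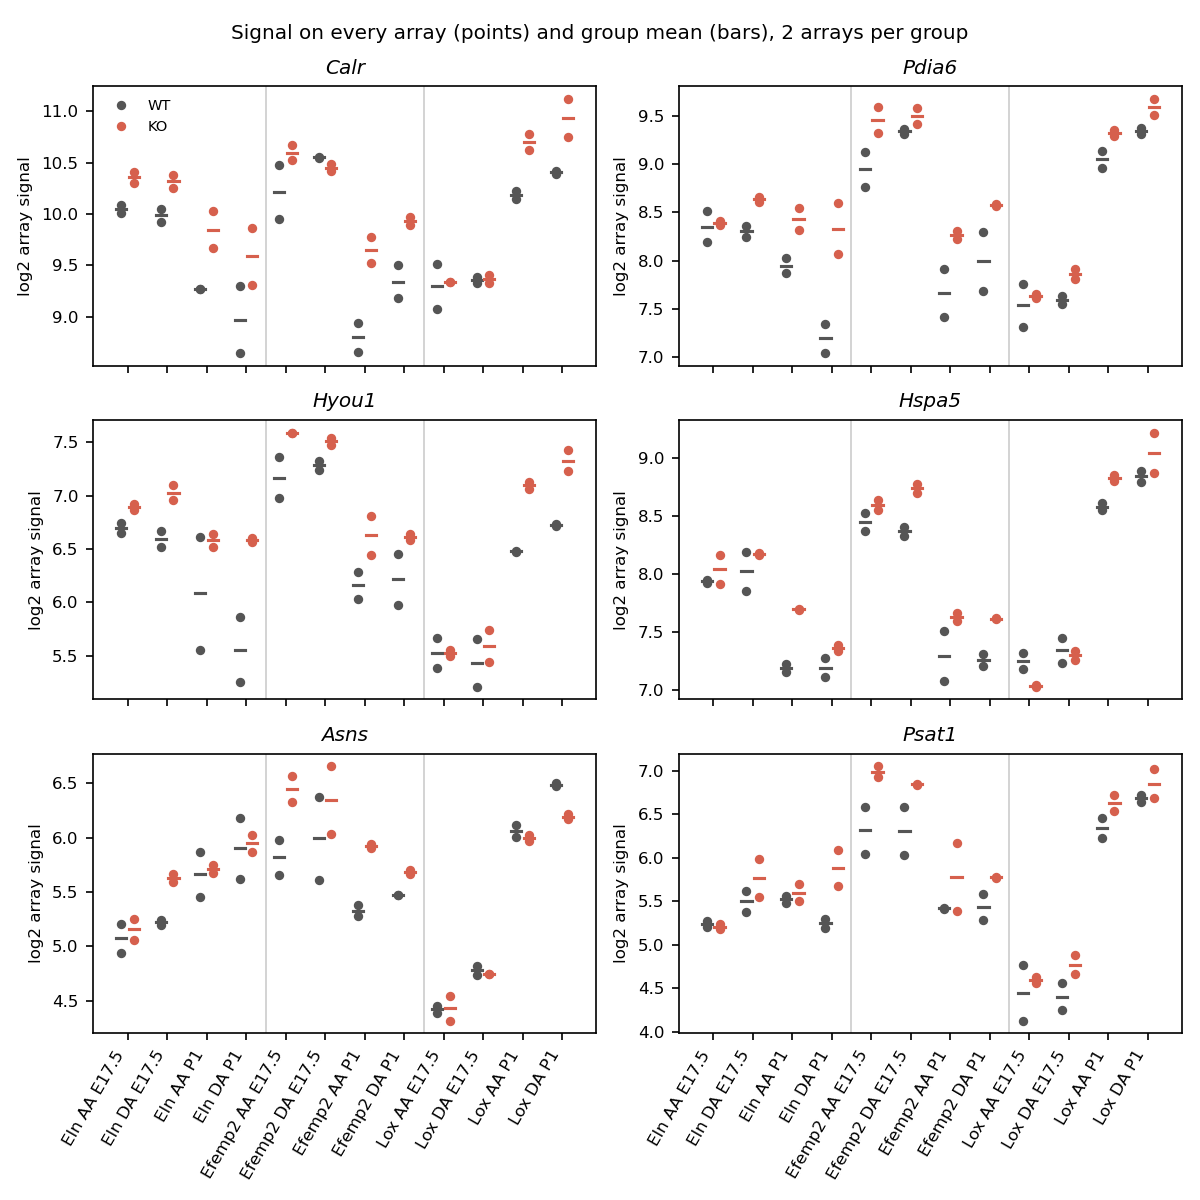
Signal (log2, vertical axis) of Calr, Pdia6, Hyou1, Hspa5, Asns and Psat1 on every array, by model, location and stage; grey points are WT arrays, red points KO arrays and short bars the means of the 2 arrays of a group. For Calr in the Eln model the KO points lie above the WT points in all 4 pairs, and for Asns in the Lox model they do not lie above them in any pair without overlap.

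Canx, Pdia3 and Dnajb11 rose in Efemp2 KO. Canx encodes calnexin, the membrane-bound partner of calreticulin, and Pdia3 the disulfide isomerase that works with both. Canx ran from 8.36 through a median of 9.67 to 10.24 in Efemp2 WT and from 9.63 through 9.87 to 10.54 in KO, and it rose by 0.41 ± 0.11 (adjusted p = 0.0322). Pdia3 ran from 8.69 through 9.85 to 10.52 in WT and from 9.49 through 10.03 to 10.37 in KO, with KO and WT overlapping in both pairs of E17.5 and apart in both of P1, and it rose by 0.29 ± 0.08 (adjusted p = 0.0407). Dnajb11, a co-chaperone of BiP, ran from 5.91 through 7.10 to 7.74 in WT and from 6.89 through 7.47 to 7.95 in KO, and it rose by 0.49 ± 0.13 (adjusted p = 0.031). For these 3 genes the AA P1 pair was the widest, where Canx read 8.36 and 9.08 in WT and 9.63 and 9.63 in KO, and Dnajb11 5.91 and 6.30 in WT and 6.89 and 7.23 in KO. All 3 calls were fragile, since those of Canx, Pdia3 and Dnajb11 were lost on leaving out 10, 11 and 9 of the 16 Efemp2 arrays in turn. In Eln KO and Lox KO none of the 3 passed, with differences of 0.24, 0.26 and 0.31 and of 0.14, -0.01 and 0.08.

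The other 7 measured chaperones and folding enzymes passed in no model. Dnajc3, an inhibitor of PERK that also serves BiP as a co-chaperone, ran from 8.48 through 8.90 to 8.98 in Eln WT and from 9.05 through 9.18 to 9.27 in KO, and both KO arrays were above both WT arrays in all 4 pairs. Its difference was 0.33 ± 0.11 in Eln KO (adjusted p = 0.0889), 0.30 ± 0.11 in Efemp2 KO (adjusted p = 0.118) and 0.06 ± 0.11 in Lox KO. Creld2, which acts on disulfides of matrix and receptor proteins, differed by 0.32, 0.19 and 0.26 in Eln, Efemp2 and Lox KO (SE 0.10), and Manf, a secreted ER stress factor, by 0.28, 0.20 and 0.04 (SE 0.10). Hsp90b1, the ER member of the HSP90 family, differed by 0.19, 0.25 and 0.13 (SE 0.09), and Ero1b, an oxidase that recharges disulfide isomerases, by 0.28, 0.21 and 0.05 (SE 0.13). Sdf2l1, a part of the BiP complex, had the largest difference of any member in Lox KO, 0.38 ± 0.14 (adjusted p = 0.194), where at DA P1 the WT arrays read 6.09 and 6.25 and the KO arrays 6.85 and 6.64. Dnajb9, a co-chaperone that holds IRE1 inactive, was the lowest member in Eln KO and in Lox KO, at -0.19 ± 0.30 and -0.32 ± 0.30, and it differed by 0.18 ± 0.30 in Efemp2 KO. Its replicates were far apart, with 3.94 and 6.36 in Efemp2 WT AA P1 and 7.36 and 5.55 in Eln WT DA P1.

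Among the 4 genes of ER associated degradation, 2 rose in Efemp2 KO and 0 passed in Eln KO or Lox KO, with 2 and 0 at an unadjusted p under 0.05. Edem1, a lectin that takes unfolded glycoproteins out of the folding cycle, ran from 5.54 through 6.43 to 6.91 in Efemp2 WT and from 6.31 through 6.70 to 7.25 in KO, and rose by 0.43 ± 0.11 (adjusted p = 0.0238). Syvn1, the ubiquitin ligase HRD1, ran from 6.49 through 6.90 to 7.53 in WT and from 7.14 through 7.38 to 7.57 in KO, and rose by 0.33 ± 0.09 (adjusted p = 0.0397). The Syvn1 arrays were apart at P1, with 6.91 and 6.90 in WT DA and 7.57 and 7.51 in KO DA, and in DA at E17.5 KO was not higher, with 7.53 and 7.52 in WT DA and 7.19 and 7.51 in KO DA. These calls were lost in 13 and 18 of 26 alternatives, and on leaving out 8 and 12 of the 16 arrays in turn. Herpud1, a membrane protein of the HRD1 complex, differed by 0.33 ± 0.13 in Eln KO (adjusted p = 0.165), 0.31 ± 0.13 in Efemp2 KO (adjusted p = 0.202) and -0.08 ± 0.13 in Lox KO. Sel1l, the adaptor of HRD1, differed by 0.21, 0.05 and -0.09 (SE 0.12).

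Of the 5 sensors and transcription factors, 0 passed in any model by limma, with 2 in Eln KO and 0 in the others at an unadjusted p under 0.05. Ern1, the gene of IRE1, differed by 0.28 ± 0.12 in Eln KO (adjusted p = 0.215) and by 0.01 ± 0.12 in Efemp2 KO. Atf6 differed by 0.22 in Eln KO and 0.11 in Efemp2 KO (SE 0.11), and Xbp1 by 0.14, 0.13 and -0.05 (SE 0.09) in Eln, Efemp2 and Lox KO. The array reads the level of Xbp1 RNA and not its splicing. Eif2ak3, the gene of PERK, differed by 0.08, 0.02 and 0.04 (SE 0.10), with a 95% interval of -0.18 to 0.22 in Efemp2 KO. Atf4 was bright on all arrays, between 8.93 and 10.68, and differed by -0.02, 0.20 and 0.09 (SE 0.10).

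Asns and Psat1 were the ATF4 targets that rose, both in Efemp2 KO. Asns, the asparagine synthetase gene, had a lowest value of 5.28, a median of 5.54 and a highest value of 6.37 in Efemp2 WT and 5.66, 5.99 and 6.65 in KO. In AA it read 5.98 and 5.65 in WT and 6.32 and 6.57 in KO at E17.5, and 5.28 and 5.38 in WT and 5.90 and 5.94 in KO at P1, so that both pairs were apart, while DA at E17.5 overlapped. It rose by 0.45 ± 0.11 in Efemp2 KO (adjusted p = 0.0106), a call lost when the 16 Efemp2 arrays were fitted by themselves (adjusted p = 0.175) and without WT DA E17.5 replicate 1. It was the member that kept its call with the background covariate (0.44, adjusted p = 0.0428). Asns differed by 0.15 ± 0.11 in Eln KO (adjusted p = 0.551) and by -0.10 ± 0.11 in Lox KO (adjusted p = 0.716). In Lox DA at P1 the KO arrays were the lower ones, with 6.47 and 6.50 in WT and 6.17 and 6.21 in KO.

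Psat1, which makes phosphoserine in the path from glucose to serine, ran from 5.28 through a median of 5.81 to 6.58 in Efemp2 WT and from 5.39 through 6.51 to 7.05 in KO. It rose by 0.48 ± 0.12 (adjusted p = 0.0159), and its pairs were apart in 3 of 4, as in AA at E17.5 with 6.58 and 6.05 in WT and 7.05 and 6.93 in KO. The call was lost without WT DA E17.5 replicate 1, without KO AA P1 replicate 2 and without the 4 high-background arrays. It was also lost with the background covariate and with the model's arrays alone. Phgdh, the enzyme before Psat1 in the same path, did not follow it, at 0.03 ± 0.13 in Efemp2 KO, and its KO arrays were above WT at E17.5 and mostly below it at P1, with 6.88 and 7.01 in WT AA and 6.22 and 6.63 in KO AA. Shmt2, the mitochondrial serine hydroxymethyltransferase, had the largest member difference in Efemp2 KO, 0.49 ± 0.19 (adjusted p = 0.175), with a wide error, since replicates such as 6.25 and 8.29 in WT AA E17.5 were far apart. Ddit3, the gene of the death-linked factor CHOP, was among the lowest members in Eln KO and Efemp2 KO, at -0.06 ± 0.11 in each, with 95% intervals of -0.28 to 0.15. Trib3, Chac1 and Sesn2 were dim, at means of 4.62, 4.51 and 4.27 over all arrays, and differed by -0.05, 0.04 and 0.18 in Eln KO, 0.15, 0.17 and 0.20 in Efemp2 KO, and -0.01, -0.01 and -0.10 in Lox KO. Ppp1r15a, the phosphatase subunit that ends PERK signalling, differed by 0.07, 0.10 and 0.10 (SE 0.11).

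Set side by side, chaperones and folding enzymes lay further above the shift than ATF4 targets in most pairs. The 2 groups also differ in brightness. Their list means over the arrays ran from 7.12 to 9.22 for chaperones and from 4.57 to 6.45 for ATF4 targets. The part of brightness in this contrast was not tested. Less the shift, the median of the 15 chaperones was 0.23, 0.26 and 0.20 in KO of Eln, Efemp2 and Lox, with 14, 15 and 14 of 15 above the shift. The median of the 9 ATF4 targets was 0.01, 0.13 and 0.07, with 5, 7 and 6 of 9 above it. The 4 degradation genes had medians of 0.16, 0.28 and 0.06, and the 5 sensors and factors 0.08, 0.08 and 0.13. Over the alternatives, leaving out 1 array included, the chaperone median ran from 0.19 to 0.27 in Eln KO, from 0.18 to 0.32 in Efemp2 KO and from 0.13 to 0.23 in Lox KO. The ATF4 median of Eln KO was near 0 and turned negative with the background covariate, as given with the other alternatives.

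In single pairs the chaperone median less the shift was positive in all 12. For Eln KO, E17.5 gave 0.15 (AA) and 0.30 (DA), and P1 gave 0.39 and 0.13. For Efemp2 KO, E17.5 gave 0.17 and 0.21, and P1 gave 0.39 and 0.30. For Lox KO, E17.5 gave 0.02 and 0.11, and P1 gave 0.39 and 0.36. In these P1 pairs of Lox, 54.6% (AA) and 44.7% (DA) of all tested genes had KO below WT without overlap. A common normalization of the Lox P1 arrays is not shown. The ATF4 median was 0.13, 0.01, 0.06 and -0.22 in the same order in Eln KO, 0.26, 0.24, 0.31 and 0.04 in Efemp2 KO and 0.08, -0.03, 0.16 and -0.04 in Lox KO. Efemp2 KO at E17.5 was where the ATF4 median was the higher of the 2 in both locations, and in Lox KO this was so in AA at E17.5. These medians carry no test.

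**Figure D3:**
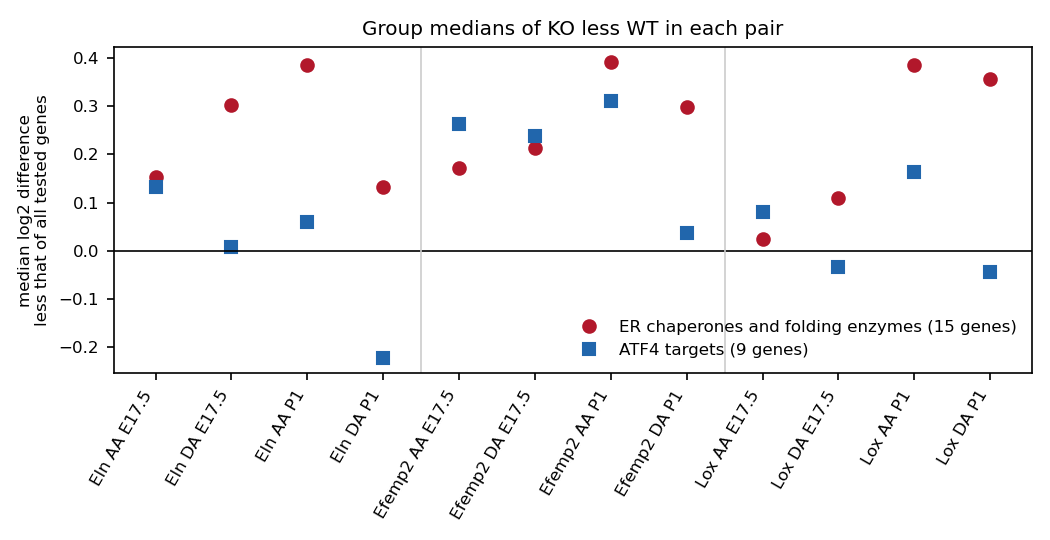
Median difference (KO less WT, log2, less the median of all tested genes, vertical axis) of the 15 measured chaperones and folding enzymes (red circles) and the 9 measured ATF4 targets (blue squares) in each of the 12 pairs. The circles lie above 0 in every pair, between 0.02 and 0.39, and the squares between -0.22 and 0.31.

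All calls in single pairs were at P1. In Eln DA P1, the pair with both high-background WT arrays, 12 members rose, and 19.8% of all tested genes rose there as well. They were Calr, Pdia6, P4hb, Dnajb11, Hyou1, Herpud1, Edem1, Sel1l, Eif2ak3, Xbp1, Psat1 and Shmt2, between 0.53 and 1.37, or 0.27 and 1.10 less the shift. Herpud1 read 5.64 and 6.17 in WT and 6.98 and 7.27 in KO there, and Shmt2 5.14 and 6.67 in WT and 7.28 and 7.27 in KO. In Efemp2 AA P1 5 members rose against 3.03% of all tested genes. These were Calr (0.85, adjusted p = 0.0202), Canx (0.91, adjusted p = 0.0204), Pdia3 (0.65, adjusted p = 0.0226), Dnajb11 (0.96, adjusted p = 0.0383) and Syvn1 (0.73, adjusted p = 0.0256). In the other 10 pairs limma called 0 members, with 0 to 11 at an unadjusted p under 0.05, where 3.19% to 14.6% of all tested genes had such a p, and between 0.00652% and 1.28% of all tested genes rose.

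**Figure D4:**
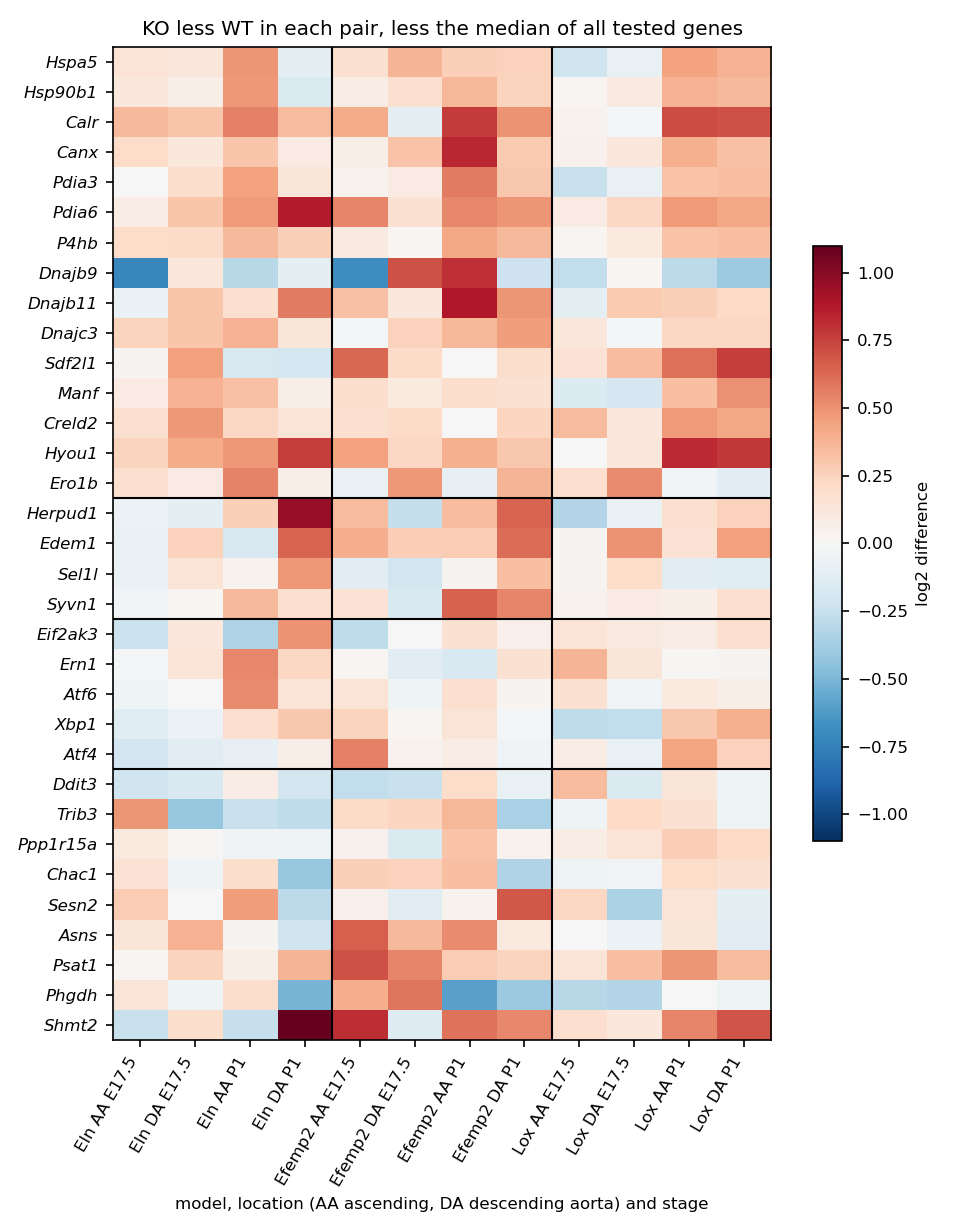
Difference (KO less WT, log2, less the median of all tested genes) of each measured member (rows, in the order chaperones, degradation, sensors and factors, ATF4 targets) in each of the 12 pairs (columns), red for higher and blue for lower in KO. Calr, Pdia6 and Hyou1 are red in most columns, Dnajb9 and Phgdh are red in some and blue in others, and the deepest red cell is Shmt2 in Eln DA P1 at 1.10.

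The models were then compared with each other. By limma 0 members passed for the KO effect of Efemp2 less that of Eln, for Lox less Eln and for Efemp2 less Lox, against 0.554%, 0.509% and 0.0261% of all tested genes. At an unadjusted p under 0.05 there were 0, 2 and 6 members, and 8.03%, 13.2% and 10% of all tested genes. The largest of these was Asns, whose effect was higher in Efemp2 KO than in Lox KO by 0.54 ± 0.15 (0.41 less the shift, adjusted p = 0.181). So the members that rose in 1 model and not in another are not shown to differ between the models.

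The stage comparison asked whether the KO effect changed from E17.5 to P1, with both locations averaged. No member passed in Eln, Efemp2 or Lox KO, where 0.567%, 1.33% and 0.0978% of all tested genes did, and 6, 8 and 5 members had an unadjusted p under 0.05, as did 15.6%, 16.8% and 11.6% of all tested genes. Syvn1 in Efemp2 KO was nearest, with an effect 0.70 ± 0.19 higher at P1 (adjusted p = 0.0508), and it passed without the 4 high-background arrays (0.78, adjusted p = 0.0436) and without WT AA E17.5 replicate 1, WT AA P1 replicate 2, WT DA P1 replicate 1 or KO DA E17.5 replicate 2. Phgdh in Efemp2 KO went the other way, by -0.89 ± 0.26 (adjusted p = 0.0778), and passed without WT DA P1 replicate 1 (-1.08, adjusted p = 0.0158). Herpud1 in Eln KO was higher at P1 by 0.85 ± 0.25 (0.71 less the shift, adjusted p = 0.0984) and passed without WT DA P1 replicate 2 (0.98, adjusted p = 0.0313). In Lox KO the effects of Calr, Hyou1 and Hspa5 were higher at P1 by 0.50, 0.53 and 0.35, or 0.70, 0.73 and 0.56 less the shift, with adjusted p values of 0.35, 0.378 and 0.385.

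The location comparison asked whether the KO effect differed between DA and AA, with both stages averaged. In Eln KO 2 members passed, and 5.24% of all tested genes did. The effect on Edem1 was 0.73 ± 0.22 higher in DA (0.55 less the shift, adjusted p = 0.0493) and that on Eif2ak3 0.75 ± 0.20 higher (0.57 less the shift, adjusted p = 0.0279). At P1 the DA arrays of Edem1 read 6.01 and 5.41 in WT and 6.72 and 6.51 in KO and those of AA 6.51 and 6.55 in WT and 6.21 and 6.53 in KO. Eif2ak3 read 5.56 and 5.21 in WT and 6.28 and 6.02 in KO in DA, and 6.19 and 6.14 in WT and 5.78 and 5.91 in KO in AA, so the direction was opposite in the 2 locations without overlap. Both WT arrays of DA P1 had high background, and without them the difference rests on E17.5 alone, where it was 0.40 and 0.42, with an adjusted p of 0.998 each. The Edem1 call was lost on leaving out any of 14 of the 16 Eln arrays, all but WT DA P1 replicate 1 and KO AA P1 replicate 2. The Eif2ak3 call was lost without WT AA E17.5 replicate 2, WT DA E17.5 replicate 1, KO AA E17.5 replicate 1, KO DA E17.5 replicate 1 or KO AA P1 replicate 1. In Efemp2 KO and in Lox KO 0 members passed, with 1 and 0 at an unadjusted p under 0.05. There 0% and 0% of all tested genes passed by limma, with 956 and 259 genes (6.23% and 1.69%) at an unadjusted p under 0.05.

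Between the locations of WT aorta, averaged over the 3 models, few members passed. At E17.5 0 of 33 passed, also at an unadjusted p under 0.05, while 3.55% of all tested genes passed. At P1 Edem1 was lower in DA by 0.49 ± 0.13 (-0.48 less the shift, adjusted p = 0.0151), and 9.68% of all tested genes passed. This call was lost after cyclic loess and without the 4 high-background arrays, and also without Eln WT DA P1 replicate 2, Efemp2 WT AA P1 replicate 1, Efemp2 WT DA P1 replicate 2, Lox WT AA P1 replicate 1 or Lox WT DA P1 replicate 2. Without those 4 arrays the comparison rests on the Efemp2 and Lox models alone. Efemp2 AA and Efemp2 DA then keep 1 WT array each. There Canx, Pdia3, Pdia6 and Dnajb9 were higher in DA, by 0.66, 0.57, 0.59 and 1.85, where the shift was 0.09. The Efemp2 AA array left, replicate 1, had a chaperone list mean of 7.12, against 7.49 in the replicate left out. These differences thus rest partly on single arrays.

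The members with ERSE or ERSE-II in their promoter were set beside those without. All 11 with a match and a measured signal lay above the shift in each of the 3 models, with medians less the shift of 0.26, 0.27 and 0.17. Among them 2, 6 and 0 rose in KO of Eln, Efemp2 and Lox, where 2.74%, 3.14% and 0.561% of all tested genes rose. Among the 19 with a promoter and no such match, 13, 15 and 14 lay above the shift, with medians of 0.08, 0.15 and 0.08, and 1, 4 and 0 rose. The 4 measured members with CARE, Herpud1, Trib3, Chac1 and Asns, had medians of 0.04, 0.20 and 0.04. P4hb rose without a match to any of the 4 patterns, and so did Pdia3, Edem1 and Psat1. Motif and function overlap in this list, since 9 of the 11 with ERSE or ERSE-II are chaperones or folding enzymes.

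Other genes of the same paths were taken from wider lists. Of 39 measured further genes of ER folding, quality control and translocation, 5, 4 and 1 rose in KO of Eln, Efemp2 and Lox, and 0 fell. Of all tested genes 2.74%, 3.14% and 0.561% rose. The calls of the wider lists were not followed through the alternatives. Uggt1, the sensor that sends unfolded glycoproteins back to calnexin and calreticulin, rose in all 3 models, by 0.41 ± 0.08 in Eln KO (adjusted p = 0.00106), 0.31 ± 0.08 in Efemp2 KO (adjusted p = 0.0158) and 0.30 ± 0.08 in Lox KO (adjusted p = 0.0364). In Efemp2 KO it was higher in 2 of the 4 pairs, or in 3 less the shift, and in Eln KO and Lox KO in all 4. Fkbp11, a prolyl isomerase of the ER, rose by 0.55 ± 0.13 in Eln KO and 0.75 ± 0.13 in Efemp2 KO, with adjusted p values of 0.0154 and 0.00059. It was higher in 2 of the 4 pairs of Eln, or in 3 less the shift, and in all 4 of Efemp2. Creb3l2, a membrane-bound transcription factor of secretory cells (0.63), Txndc5, a disulfide isomerase (0.59), and Ero1a, an ER oxidase (0.56), rose in Eln KO, and Selenos (0.37) and Kdelr2, a receptor that returns ER proteins (0.35), in Efemp2 KO. The medians of this list less the shift were 0.13, 0.19 and 0.09, beside 0 for all tested genes.

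Of 37 tested further genes of the ATF4 and amino acid response, 3 rose and 1 fell in Eln KO, 3 rose and 1 fell in Efemp2 KO, and 1 rose and 2 fell in Lox KO. Of all tested genes, 2.74% rose and 0.541% fell, 3.14% rose and 0.665% fell, and 0.561% rose and 1% fell. For Eif2s1 the probe set taken carried the symbol Eif2a, found as a synonym, and may belong to another gene. It was not called but counts in the medians. Nupr1, a stress-induced nuclear protein, rose by 0.78 ± 0.12, 0.55 ± 0.12 and 0.52 ± 0.12 in Eln, Efemp2 and Lox KO, with adjusted p values of 8.63e-05, 0.00545 and 0.018. Slc7a5, the light chain of a transporter of large neutral amino acids, rose by 1.04 ± 0.17 in Efemp2 KO (adjusted p = 0.000197) and differed by 0.54 in Eln KO (adjusted p = 0.0842) and 0.27 in Lox KO (adjusted p = 0.485). Slc1a4, a transporter of neutral amino acids (0.61), and Gars, the glycine transfer RNA synthetase (0.38), rose in Eln KO, and Slc7a1, a transporter of cationic amino acids (0.53), in Efemp2 KO. The genes that fell were Vldlr in Eln KO and Lox KO (-0.65 each), Cbs in Efemp2 KO (-0.46) and Stc2 in Lox KO (-0.66). The medians less the shift were 0.13, 0.18 and 0.13.

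Markers of other cell types moved with genotype in the same arrays, and their part in the members' differences was not tested. Of all tested genes, 2.74% rose and 0.541% fell in Eln KO, 3.14% and 0.665% in Efemp2 KO, and 0.561% and 1% in Lox KO. At an unadjusted p under 0.05 the shares were 15.7%, 16.2% and 14.6%. In Efemp2 KO, 6 of 8 macrophage markers rose, with the list mean at E17.5 between 5.97 and 6.85 in WT and between 7.08 and 7.71 in KO, and at P1 between 6.07 and 6.71 and between 7.01 and 7.41. Of 8 endothelial markers 3 fell there. In Lox KO, where 0 members rose, 1 macrophage marker rose and the list median less the shift was 0.54. Neutrophil markers ran at E17.5 from 5.09 to 5.91 in Efemp2 WT and from 5.96 to 6.20 in KO, with 3 of 8 higher and 1 lower over both stages, and at P1 from 5.23 to 5.83 in Lox WT and from 6.14 to 6.67 in KO, where 0 of 8 passed and 3 had an unadjusted p under 0.05. Of 7 tested cartilage markers 3 rose in Eln KO and 1 in Efemp2 KO, with the list mean at P1 between 5.31 and 5.59 in Eln WT and between 5.70 and 6.21 in KO. Of 8 brown fat markers 1 rose and 3 fell in Eln KO and 1 fell in Lox KO. In Eln KO 3 of 8 fibroblast markers fell and 1 of 8 smooth muscle markers, Smtn, rose, and 0 of 8 macrophage markers passed, with 1 at an unadjusted p under 0.05. Of 5 tested markers of plasma and B cells, a cell type rich in ER chaperones, 0 passed in any model, with 1 in each at an unadjusted p under 0.05. That list's mean lay between 3.61 and 5.79 on all arrays. Means of marker lists also count genes below the filter, Jchain and Ms4a1 in this list and Matn1 among the cartilage markers.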

How the data were processed

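The authors deposited log2 signals per probe set of 48 whole-transcript arrays, made with Affymetrix Expression Console and RMA per the submitters' processing notes, which give no versions. Per the labels' protocols each array held amplified cDNA from 5 ng RNA of 8 pooled, snap-frozen aortas. RMA had been run in several sets, so levels were compared only within a model and stage. For the Lox P1 arrays, which shared no lowest values, a common set is not shown. Probe sets with 1 symbol were kept (23521 of 41345). Genes with a group mean of at least 4.94 were tested (15337). limma 3.58.1 in R 4.3.3 was fitted to all 48 arrays with a mean for each of 24 groups (24 residual degrees of freedom), with Benjamini-Hochberg adjustment over all tested genes and a threshold of 0.05. The precision is limited by the number of arrays.

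The members and lists were chosen with earlier results of these data known. A member was described in full when it passed in a mean or difference contrast. It was also described in full when among the 3 highest or 3 lowest in a mean contrast. From the wider lists up to 4 genes per direction and model were named. A gene named for a model could be given in others as well, as Uggt1 was in Eln KO. The fit was tested on simulated data. Alternatives were no filter, cyclic loess, eBayes with trend and robust, replicate number as a fixed or random block (statmod 1.5.0), array background as a covariate, the mean of all probe sets, the arrays of the model alone, without the 4 high-background arrays, and each array left out. Subtracting array medians was added after seeing the data. Same-numbered KO and WT arrays deviated together with correlations of -0.233 to 0.203, so the numbers were not taken as pairs. C-terminal residues were not analysed here.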

Additional observations from a re-analysis of the deposited data

Results flagged for a closer look

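By limma's test, the KO effects on 2 of 33 measured members differed between the locations of the aorta in Eln KO. This is near the share of all tested genes that passed, 5.24%. For Edem1 the effect in DA exceeded that in AA by 0.73 (adjusted p = 0.0493), and for Eif2ak3 by 0.75 (adjusted p = 0.0279). The shift of this comparison was 0.18, and the 2 calls were lost in 21 and 10 of 26 alternatives. Both WT arrays of Eln DA P1 had high background. Without the 4 high-background arrays no WT array of that group is left, and the differences rest on E17.5 alone, where they were 0.40 and 0.42, with an adjusted p of 0.998 each.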

How the results depend on the processing

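The number of members that rose depended on the processing, and the cause was not tested. The number of all tested genes that rose in Eln KO and Efemp2 KO changed as well, as given in the Results. In Eln KO, 4 became 1 with the background covariate (Ero1b), 0 without the 4 high-background arrays and 1 with the model's arrays alone, and leaving out 1 array gave 4 to 6. Leaving out the 4 arrays removes the Eln DA P1 pair, so that the Eln mean then covers 3 pairs. The Eln location difference covers E17.5 alone, the Eln stage difference AA alone, and the WT difference at P1 the Efemp2 and Lox models alone. In Efemp2 AA P1 and Efemp2 DA P1, 1 WT array each is left. In Efemp2 KO, 10 became 5 after cyclic loess, 1 with the covariate, 6 without the 4 arrays and 0 with the model's arrays alone, and leaving out 1 array gave 4 to 13. In Lox KO, 0 became 2 with the model's arrays alone, and leaving out 1 array gave 0. The stage count in Efemp2 KO, 0, became 1 with a random replicate block, with the mean of all probe sets and without the 4 arrays, and was 0 to 2 with 1 array left out. That in Eln KO was 0 to 1. The location count in Eln KO, 2, became 1 with no filter and with the mean of all probe sets, and 0 after cyclic loess, with the covariate, with array medians subtracted, without the 4 arrays and with the model's arrays alone, and was 0 to 2 with 1 array left out. In WT at P1, 1 became 2 with trend and robust and with array medians subtracted. Of all tested genes 741 and 819 were higher in DA there and 724 and 690 lower, against 761 and 724 before. The count also changed without the 4 arrays and with 1 array left out, as did that of all tested genes. These fits leave 1 array in a group. At E17.5 the member count changed with 1 array left out as well. The ATF4 median in Eln KO, 0.01, was -0.0075 with the covariate and -0.030 to 0.086 with 1 array left out. The difference of Pdia6 between WT locations at P1 turned positive after cyclic loess (0.047), with the covariate (0.072), without the 4 arrays (0.59), and without Eln WT DA P1 replicate 1 (0.0092), Efemp2 WT AA P1 replicate 2 (0.043) or Efemp2 WT DA P1 replicate 2 (0.061), within a range of -0.14 to 0.061 for 1 array left out. That of Shmt2 was 0.34 at P1 without the 4 arrays, and at E17.5 -0.056 without Efemp2 WT AA E17.5 replicate 1, within -0.056 to 0.62 for 1 array left out.

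With the replicate number as a fixed replicate block, the members that rose numbered 4 (Eln), 7 (Efemp2) and 0 (Lox), and with a random block 4, 10 and 0. The fixed block lost Hspa5, Pdia3 and Syvn1 in Efemp2 KO. The arrays share only a number.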
